A study of Mus musculus with 4 samples.

Results

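Cluster 10 of the mouse mammary luminal cells was 1 of 8 clusters that carry the label mature luminal in the deposited table. Its members were all cells to which the table gives the cluster number 10, and they came to 4565 of the 32439 cells of the series, or 4565 of the 23800 mature luminal cells. The series compared luminal epithelial cells of ErbB3+/+;MMTV-Cre mice (WT) with those of ErbB3V943R/V943R;MMTV-Cre mice (mutant), to learn how loss of the activator function of ERBB3 affects the mammary epithelium. For each genotype, the thoracic and abdominal glands of 3 C57BL/6N mice, all 6 weeks old, went into 1 pool, from which luminal cells were sorted by flow cytometry and read as 2 droplet libraries, called A and B here. Both groups carried the MMTV-Cre transgene, in which the mouse mammary tumour virus promoter drives Cre recombinase in mammary epithelial cells. In the mutant, Cre removes a floxed wild-type cassette, and the native *Erbb3* promoter then expresses an exon with the V943R change. With 1 pool per genotype there was no biological replicate, so the genotypes were compared without a test, and the libraries of a pool measure technical spread only.

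Mature luminal cells are the hormone-sensing cells of the mammary duct. They carry the receptors for estrogen, progesterone and prolactin, and they pass the hormonal signal to neighbouring cells through secreted factors such as amphiregulin. ERBB3 is a receptor of the epidermal growth factor receptor family with very weak kinase activity of its own, and it acts by binding and activating a partner receptor such as ERBB2.

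The 4 libraries gave cluster 10 a total of 18650043 unique molecular identifiers (UMIs), each of which marks a captured mRNA molecule. The median cell had 3813 UMIs and 1745 detected genes, with a median of 3435 to 4222 UMIs over the libraries. The other mature luminal clusters had medians between 1448 UMIs (cluster 9) and 5255 UMIs (cluster 5). The median mitochondrial share of UMIs per cell was 0.169%, the lowest of the 8 clusters, against 0.952% in cluster 8, 0.475% in cluster 9 and 0.199% to 0.246% in the other 5. Across all cells, 511 of 31923 barcodes occurred in more than 1 library. A level is given below in counts per 1000000 UMIs (CPM), summed over the cells of a cluster and library, and a difference as the log2 ratio of 2 such levels with a 95% interval. The intervals treat UMIs as independent molecules and cover counting error only.

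The class label was compared with marker genes. The study used *Prlr* expression to define its mature luminal cells, so the level of *Prlr* is no independent check. *Prlr* and *Pgr*, the receptors for prolactin and progesterone, together stood at 2744 CPM in cluster 10, against 249 and 334 CPM in the luminal progenitor clusters 1 and 2. The 12 mature luminal markers summed to 24440 CPM, the highest of the 13 clusters, with 23550 to 25330 CPM over the 4 libraries and 16400 to 21110 CPM over the other 7 mature luminal clusters. *Krt18* and *Areg*, with 213027 and 98419 UMIs in cluster 10, made up most of this sum. Single markers did not all go the same way. Against the other mature luminal clusters *Ly6a* was higher by 1.5-fold or more and *Cited1* lower, and 9 markers were within that fold. Of these 12 markers, *Tnfsf11* had no UMI in any mature luminal cluster. The 10 luminal progenitor markers summed to 303 CPM, against 28080 CPM in cluster 1. The 7 immune markers summed to 5.42 CPM with 1 at 0, the 6 fibroblast markers to 8.53 CPM with 2 at 0, the 5 endothelial markers to 16.7 CPM with 2 at 0, and the 8 basal markers to 25.04 CPM. The 9 proliferation markers summed to 72.7 CPM, the lowest of the 13 clusters, against 1556 and 1882 CPM in the cycling mature luminal clusters 5 and 6. By these markers the cells fit the label mature luminal, which itself rests on *Prlr* expression.

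*Cited1* (ENSMUSG00000051159, chromosome X from 102247381 to 102252181 in GRCm38), a transcriptional co-regulator that binds the estrogen receptor and marks hormone-sensing cells, was lower in cluster 10 than in any other mature luminal cluster. It stood at 445 and 412 CPM in WT libraries A and B and at 308 and 291 CPM in mutant libraries A and B. All 4 values lay below the lowest of the other mature luminal clusters in any library, which was 783 CPM. Pooled over libraries, *Cited1* stood at 372 CPM in cluster 10 and 1501 CPM in the other 7 clusters, a log2 ratio of -2.01 (-2.05 to -1.98). The nearest cluster was cluster 9 with 966 CPM, and the highest was cluster 5 with 2359 CPM.

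Of the cells of cluster 10, 50.9% held a *Cited1* UMI, against 79.4% of the other mature luminal cells. So did 17.1% of the cells of cluster 12 and 41 of the 164 cells of cluster 13, which are rare clusters led by stromal and immune genes. *Krt18*, a luminal marker, was detected in 68.4% and 58.5% of their cells. Whether such transcripts came from free RNA or from droplets with more than 1 cell was not tested. The cells of clusters 12 and 13 were shallower, with medians of 1767 and 1869 UMIs. After each cell had been thinned to 1000 UMIs, the shares were 22.9% in cluster 10, 56.8% in the other mature luminal cells, 9.72% in cluster 12 and 14.5% in cluster 13. Cluster 10 therefore lay between clusters 12 and 13 on one side and the other mature luminal cells on the other. Of its 4565 cells, 2241 had no *Cited1* UMI, 1085 had 1, 442 had 2 and 797 had 3 or more.

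The receptors did not follow *Cited1*. *Prlr* stood at 2511, 2640, 2428 and 2677 CPM in WT A, WT B, mutant A and mutant B, rank 3 of the 8 clusters, and 99.8% of cells held a UMI. *Pgr* stood at 161, 179, 164 and 192 CPM, rank 2 of the 8. Their log2 ratios over the other mature luminal clusters were 0.41 (0.39 to 0.42) and 0.25 (0.19 to 0.31), both within a fold of 1.5, and single libraries of other clusters reached as high. *Esr1*, the estrogen receptor, stood at 37.3 CPM against 45.5 CPM. *Foxa1*, a pioneer factor that opens chromatin for the estrogen receptor, was at 107 CPM against 157 CPM, the lowest of the 8 clusters. *Gata3*, a transcription factor that maintains luminal cells, had a log2 ratio of 0.23.

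**Figure D1:**
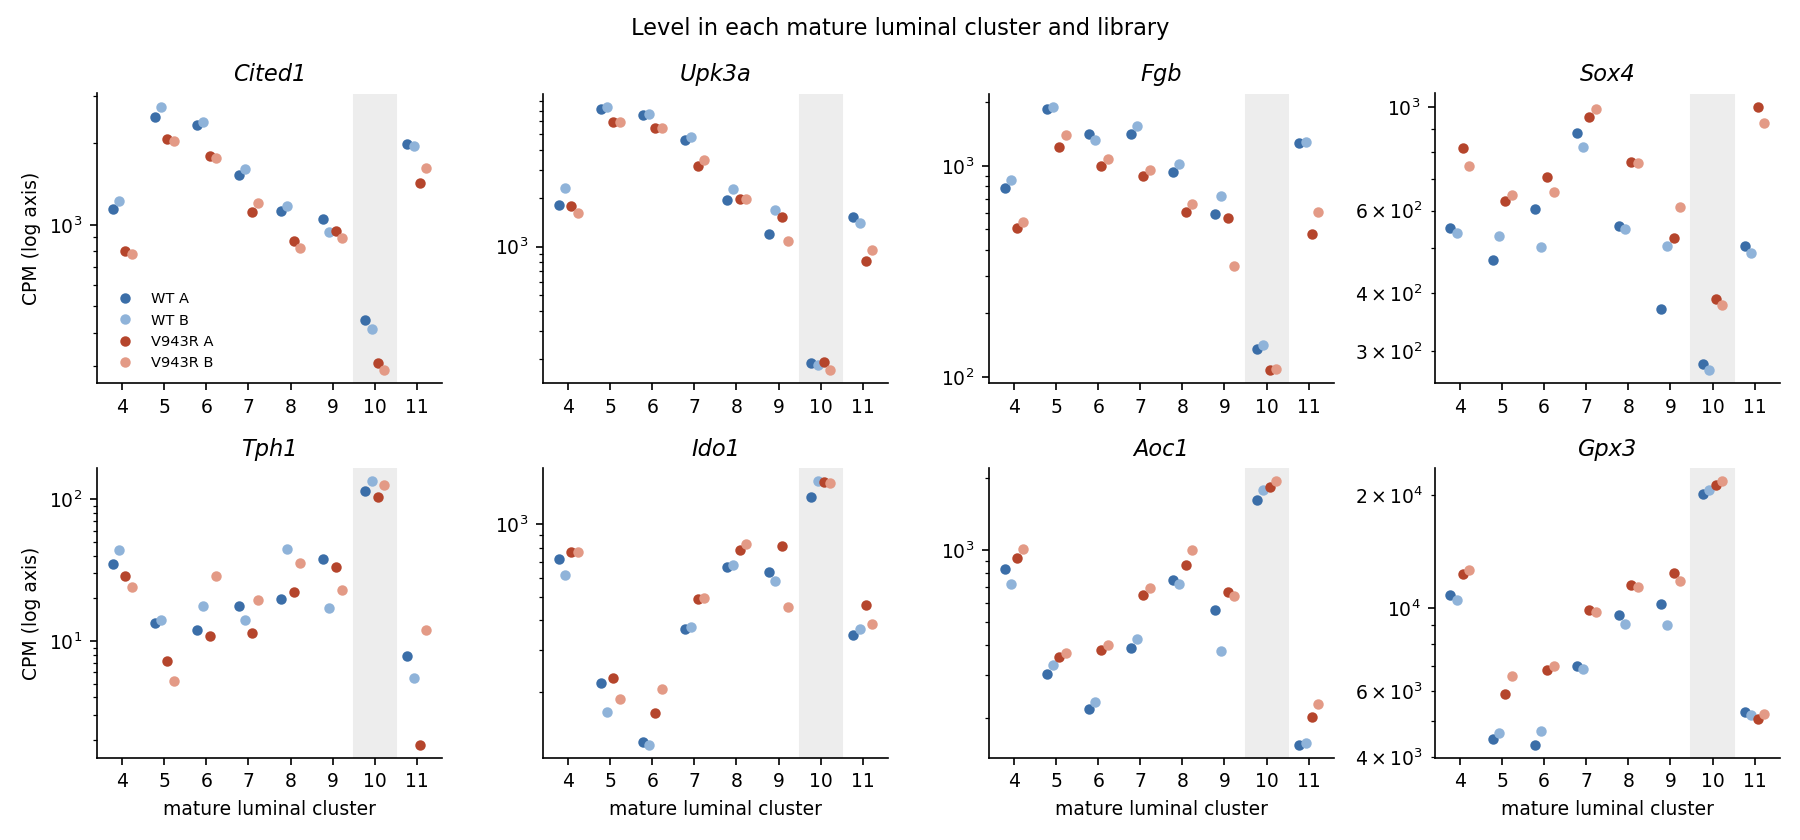
Level of 8 genes in CPM (log axis) in each mature luminal cluster (horizontal axis) and library (points; WT blue, mutant red), with cluster 10 shaded. In cluster 10 the 4 libraries of *Cited1* lie between 291 and 445 CPM and those of *Upk3a* between 171 and 191 CPM, below every other cluster, while *Tph1*, *Ido1*, *Aoc1* and *Gpx3* lie above every other cluster.

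The whole table was then scanned in the same way. A gene was past the fold where its level in cluster 10 differed from that of the other 7 clusters summed by 1.5-fold or more, in the same direction in all 4 libraries, among the 6109 genes at 20 CPM or more over clusters 4 to 11. Cluster 10 itself counts in that filter, so a gene under 20 CPM in the other 7 clusters can pass it through cluster 10. *Tph1*, *Mall*, *Krt77* and *Elf5* below were such genes. Of the 6109 genes, 563 were past the fold (9.22%), 139 higher (2.28%) and 424 lower (6.94%). At 2-fold, 41 were higher and 174 lower. The median log2 ratio of all 6109 genes was -0.12, and it was 0.047 when totals were replaced by median-of-ratios size factors, which gave 230 higher and 282 lower genes. The share of higher genes among those past the fold was thus 24.7% with totals and 44.9% with size factors. Because the clusters had been drawn from these same values, the ratios describe cluster 10 and were not tested. For these ratios, the list counts below hold only members at 20 CPM or more, which are called measured.

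Clusters 5 and 6 are cycling cells, and the genes with the lowest ratios in cluster 10 were cell cycle genes. *Nusap1*, a spindle protein, had the lowest ratio of the genes past the fold, -5.45, from 16 UMIs. *Cenpe*, *Pclaf*, *Tpx2*, *Ccna2*, *Ube2c*, *Cdca3*, *Top2a*, *Cenpf*, *Pbk*, *Birc5*, *Ccnb2*, *Cdkn3* and *Rrm2* had ratios between -4.88 and -3.84. Of the 7 proliferation markers at 20 CPM, all 7 were lower. Without clusters 5 and 6, 6012 genes met the level filter, of which 113 were higher (1.88%) and 233 lower (3.88%), and 1 proliferation marker was still lower. Of the 7 markers, 5 no longer reached the level filter there, and 6 had a ratio past 1.5-fold lower whatever their level. Of the 424 genes lower against all other clusters, 217 were also lower in that comparison. The ratios below stayed past the fold without clusters 5 and 6 unless stated.

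Of 5 measured enzymes of amine, tryptophan and glutamine metabolism, *Tph1*, *Ido1* and *Glul* were past the fold higher in cluster 10 and none was lower. *Tph1* reached the level filter only with cluster 10 counted in it. The ratios of the 5 ran from -0.53 to 2.61, with a median log2 ratio of 1.17 against -0.12 over all genes, of which 2.28% were higher. This list, like the others, was chosen with earlier results of these data known, so its counts only describe the cluster. *Tph1* (ENSMUSG00000040046, chromosome 7 from 46644641 to 46672537), the enzyme that starts serotonin synthesis, had the highest ratio of the genes past the fold, 2.61 (2.52 to 2.70). It stood at 115, 134, 103 and 127 CPM in WT A, WT B, mutant A and mutant B. Every library lay above the highest library of any other mature luminal cluster, 44.4 CPM. *Tph1* was not shared evenly among the cells. A UMI was present in 13.95% of cluster 10 cells, in 3.66% of the other mature luminal cells and in 1.83% of cluster 13 cells. In cluster 10, 3928 cells had none and 265 cells had 3 or more, up to 36 in 1 cell, and the 5% of cells with the most *Tph1* held 73.5% of its UMIs.

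*Ido1*, which opens the tryptophan ring on the way to kynurenine, stood at 1304, 1512, 1508 and 1480 CPM, against 465 CPM in the other mature luminal clusters, a log2 ratio of 1.64. It was detected in 73.7% of cells against 42.7% in the other mature luminal clusters and 9.21% and 22.0% in clusters 12 and 13. *Glul*, glutamine synthetase, stood at 8716, 8983, 7781 and 7779 CPM against 3736 CPM. The libraries of both genes lay above every library of the other mature luminal clusters. *Aoc1*, a diamine oxidase that breaks down histamine and putrescine and was not on that list, stood at 1623, 1783, 1832 and 1935 CPM against 542 CPM, a log2 ratio of 1.72. It was found in 79.7% of cells against 42.2%, and in 5.26% and 17.1% of cells of clusters 12 and 13.

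*Gpx3* is a secreted peroxidase that uses glutathione. Of 16 measured glutathione and peroxide defence genes it alone was past the fold higher, against 2.28% of all genes. It stood at 20130, 20670, 21320 and 21820 CPM against 8196 CPM, so that it took about the same part of the UMIs in all 4 libraries and lay above every library of every other mature luminal cluster. *Gsta4* and *Gclm*, a glutathione transferase and a subunit of the enzyme that starts glutathione synthesis, were lower with ratios of -1.30 and -1.04, as was *Gstm1* with totals but not with size factors. Among all genes, 6.94% were lower. *Tmem86a*, which cleaves lysoplasmalogens, stood at 838 CPM against 324 CPM, a ratio of 1.37.

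Of the 10 measured hypoxia and glycolysis genes, 4 were past the fold higher and none lower, against 2.28% higher among all genes. The median log2 ratio of the list was 0.40, against -0.12 over all genes. *Ndrg1*, a gene known to rise in hypoxia, stood at 75.1, 83.9, 85.8 and 99.3 CPM against 24.95 CPM, a ratio of 1.78. *Hif1a*, the oxygen-regulated transcription factor, had a ratio of 0.80, *Vegfa*, a growth factor for blood vessels, 0.62, and *Slc2a1*, a glucose transporter, 0.59. Without clusters 5 and 6, 2 of the 4 stayed past the fold, *Ndrg1* and *Hif1a*, against 1.88% of all genes. *Bnip3*, a mitochondrial receptor for mitophagy, did not reach the level filter and stood at 35.9 CPM against 11.3 CPM. *P4ha2*, a subunit of the enzyme that hydroxylates collagen prolines, stood at 95.5 CPM against 26.0 CPM, a ratio of 1.88. *Pcx*, pyruvate carboxylase, had a ratio of 1.40.

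Among surface and matrix genes, *Muc13*, a transmembrane mucin, stood at 112, 105, 82.6 and 99.5 CPM against 22.7 CPM, a ratio of 2.15. *Dpep2*, a membrane dipeptidase, stood at 160, 181, 212 and 216 CPM against 47.6 CPM. In both, each library lay above every library of the other mature luminal clusters. The other genes among the 15 highest ratios were *Gm17416* (2.28), *Mall* (1.77), a membrane raft protein, *Col6a3* (1.61), a chain of collagen VI, *Galnt18* (1.55), a member of the family that starts O-glycosylation, *Arg1* (1.55), arginase, *Slc5a6* (1.53), a vitamin transporter, *Krt77* (1.51), a keratin, and *Padi4* (1.41), which turns arginine in proteins into citrulline. *Gm17416*, *Arg1* and *Krt77* overlapped with single libraries of other clusters. *Ltbp1*, which holds latent TGF-beta in the matrix, entered the 15 highest when clusters 5 and 6 were left out.

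**Figure D2:**
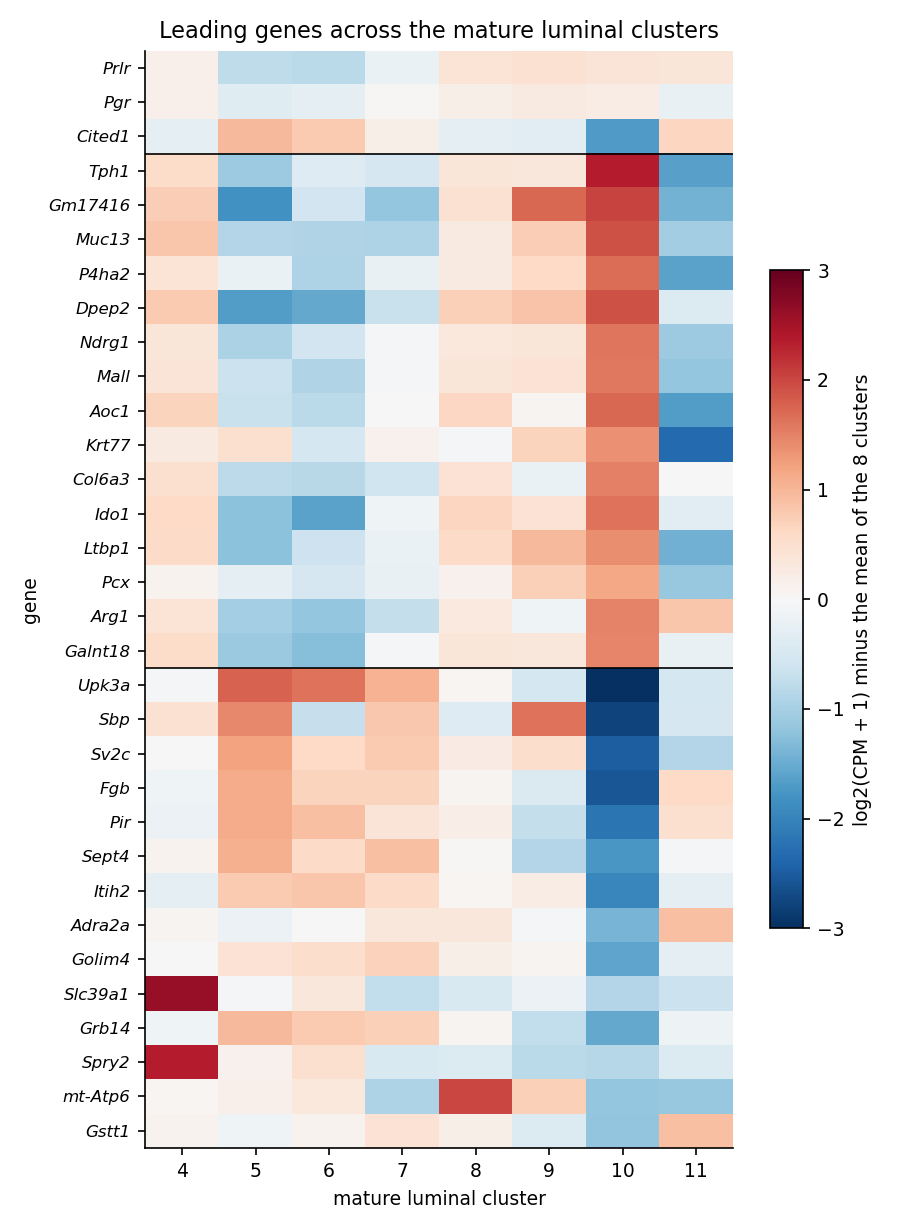
Level of the markers *Prlr*, *Pgr* and *Cited1* (top block), of the 15 genes with the highest log2 ratio in cluster 10 (middle) and of those with the lowest (bottom), chosen without the cycling clusters 5 and 6. Columns are the 8 mature luminal clusters, libraries pooled, and colour is log2(CPM + 1) minus the mean of the 8 clusters. The column of cluster 10 is red through the middle block and blue through the bottom block, while *Slc39a1* and *Spry2* stand out in cluster 4 and *mt-Atp6* in cluster 8.

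*Upk3a* (ENSMUSG00000022435, chromosome 15 from 85017141 to 85022547), a uroplakin of the plaques that line the bladder, had the lowest ratio outside the cell cycle genes, -4.23 (-4.28 to -4.18). It stood at 188, 184, 191 and 171 CPM in WT A, WT B, mutant A and mutant B. The other mature luminal clusters stood at 3433 CPM together and at 1349 CPM in the lowest of them, cluster 11. It was detected in 33.9% of cells, against 70.2% in the other mature luminal cells and 30.3% and 30.5% in clusters 12 and 13. After thinning, the shares were 11.7%, 54.0%, 15.7% and 17.4% in the same order. The share of cluster 10 was thus below those of clusters 12 and 13 after thinning and above them before it. The source of the *Upk3a* UMIs in clusters 12 and 13 was not tested. In cluster 10 the *Upk3a* UMIs were unevenly spread. There 200 cells had 3 or more, up to 75 in 1 cell, and the 5% of cells with the most held 54.9% of them.

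*Fgb* (ENSMUSG00000033831, chromosome 3 from 83040141 to 83049863), the beta chain of fibrinogen, stood at 135, 142, 108 and 110 CPM against 1068 CPM, a ratio of -3.08. *Fgg*, the gamma chain, stood at 191, 181, 127 and 110 CPM against 397 CPM, a ratio of -1.34. For both genes every library of cluster 10 lay below every library of the other mature luminal clusters. *Fgb* was detected in 24.2% of cells against 55.8%, and in 14.5% and 14.02% of cells of clusters 12 and 13. After thinning, the shares were 8.72%, 36.2%, 9.07% and 5.85% in the same order, so that the share in cluster 10 lay between those of clusters 12 and 13. The *Fgb* UMIs were unevenly spread, since 3461 cells had none and 210 had 3 or more, up to 31 in 1 cell, and the 5% of cells with the most held 55.9% of them. Of the 4 measured fibrinogen and clotting genes, 2 were lower and 1 higher, against 6.94% and 2.28% of all genes. The higher gene was *F3*, tissue factor, with a ratio of 0.59 that was within the fold without clusters 5 and 6. *Fgb*, *Fgg* and *Upk3a* belong to 11 genes that the study names for cluster 11, a list chosen on these same cells. Of these 11 genes, *S100a14* and *Sox4* were lower too, and *Tmem86a* and *Tgm2*, a transglutaminase, were higher, *Tgm2* with clusters 5 and 6 included only.

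Without clusters 5 and 6, the 15 lowest ratios also held the genes from *Sv2c* to *Sbp* below. Their values are given against all 7 other clusters. *Sv2c*, a synaptic vesicle glycoprotein, stood at 3.06 CPM against 29.7 CPM. *Pir*, an iron-binding nuclear protein, stood at 19.6 CPM against 127 CPM, and *Grb14*, an adaptor of the insulin receptor, at 33.0 CPM against 132 CPM. *Itih2* and *Sept4* had ratios of -2.44 and -2.41. *Golim4*, a Golgi protein, and *Adra2a*, an adrenergic receptor, had ratios of -1.97 and -1.82. *Slc39a1*, a zinc transporter, and *Spry2*, a feedback inhibitor of receptor kinases, had ratios of -1.69 and -1.64, and both were highest in cluster 4. *Sbp* stood at 3.28 to 5.32 CPM in 3 libraries and at 33.2 CPM in mutant B, where 128 of its UMIs came from 1 cell. Of the 13 mitochondrial genes at 20 CPM, 12 were lower, against 6.94% of all genes, with a median ratio of -1.09 against -0.12 over all genes, and clusters 8 and 9 had the highest mitochondrial shares among the clusters compared with. *Gstt1* and *mt-Atp6* were also among the 15 lowest when clusters 5 and 6 were left out.

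Of the 16 measured luminal transcription factors, 1 was higher and 1 lower, so 2 of 16 were past the fold against 9.22% of all genes. The higher gene, *Elf5*, reached the level filter only with cluster 10 counted in it. *Sox4*, a transcription factor of epithelial development, stood at 282, 273, 389 and 377 CPM against 699 CPM, a ratio of -1.12, and only the mutant values reached the lowest library of another cluster, 369 CPM. *Elf5*, a factor known for progenitor and alveolar cells, stood at 40.4, 37.1, 36.1 and 40.9 CPM against 17.51 CPM, a ratio of 1.14, while the progenitor markers as a whole stayed near the level of the other mature luminal clusters, 246 to 407 CPM. *Ly6a*, the surface antigen Sca-1 used to sort hormone-sensing cells, stood at 1612 CPM against 838 CPM. Of 10 measured steroid receptor genes and cofactors, *Cited1* and *Ncoa3* were lower and none was higher. Among all genes, 6.94% were lower and 2.28% higher. The keratins *Krt7*, *Krt8* and *Krt18* had ratios of 0.42, 0.38 and 0.36.

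The next counts stand beside 2.28% of all genes that were higher and 6.94% that were lower. Of 8 measured estrogen-responsive genes, *Xbp1* and *Ctsd*, a stress-response factor and a lysosomal protease, were higher with ratios of 0.65 and 0.63, and *Ccnd1*, *Stc2* and *Cxcl12*, a cyclin, a secreted glycoprotein and a chemokine, were lower with ratios of -0.92, -0.85 and -1.22. Without clusters 5 and 6 no gene of the list was higher and 3 were lower. *Areg*, the EGF receptor ligand amphiregulin, stood at 5079, 5291, 5337 and 5441 CPM against 3791 CPM, a ratio of 0.48 that passed the fold with size factors only, and single libraries of other clusters reached 5998 CPM. None of the 7 measured genes of the prolactin receptor and STAT5 axis was past the fold, and their median ratio was 0.30. Of 4 measured Notch genes, the receptor *Notch1* (-0.71, within the fold with size factors) and the ligand *Jag1* (-1.23) were lower. *Ccnd1*, *Cdkn1b* and *Cdkn2c* were lower among 6 D-type cyclins and CDK inhibitors, and 2 of the 3 stayed so without clusters 5 and 6. Of 3 EGF-family ligands, *Hbegf* was lower (-0.62) with totals but not with size factors.

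The counts of all lists in this paragraph are read against the 6.94% of all genes that were lower and the 2.28% that were higher. Of 7 interferon-stimulated genes, *Isg15*, *Stat2* and *Ifitm3* were lower, with ratios of -1.42 for *Isg15* and -1.08 for *Ifitm3*. Of 10 antigen presentation genes, *H2-Q4* and *Psmb9* were lower with totals and neither with size factors, with which *H2-T23* was higher. Of 5 chemokines, *Cxcl1* and *Cxcl12* were lower, and *Cxcl17* was higher with clusters 5 and 6 included only. *Dnajb9*, a chaperone of the endoplasmic reticulum, was higher (0.99), as were *Xbp1* of the same 15-gene list, *Tgfb3* (1.00) among 11 genes of the TGF-beta, BMP and Wnt pathways, *Cldn8* (1.01) among 17 junction genes and *Itgb5* (0.61) among 9 integrins and laminins. The receptor *Tgfbr2* of the TGF-beta, BMP and Wnt list was lower (-0.72) with totals but not with size factors. None of the 79 ribosomal protein genes was past the fold, and their median ratio was -0.00105, or 0.17 with size factors. Of the 18 immediate early and 10 heat shock genes, which answer to stress such as tissue dissociation, *Klf4* was higher with clusters 5 and 6 included, and *Klf2* and *Hspb1* were lower with totals but not with size factors.

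Whole profiles placed cluster 10 near clusters 8 and 4. Across 6282 genes, Pearson's r of log2(CPM + 1) was 0.978 with cluster 8, 0.976 with cluster 4, 0.972 with cluster 7 and 0.965 with cluster 11, against 0.720 with the progenitor cluster 1. These values describe genes of the same 4 libraries, which are not independent points. In a space of 30 principal components from the 2000 most variable genes, 80.6% of the 20 nearest cells of a cluster 10 cell were in cluster 10 themselves. Cluster 11 held 5.57% of these neighbours, cluster 7 held 5.33% and cluster 8 held 3.69%.

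Cluster 10 had a core and a border. In 2304 cells, 90% or more of the neighbours were in cluster 10, in 423 cells under 50% were, and 1838 cells lay between. The core made up 48.9% of cluster 10 in WT A, 51.9% in WT B, 48.2% in mutant A and 53.1% in mutant B, so the genotypes overlapped. From core to border, *Cited1* stood at 274, 417 and 688 CPM, *Upk3a* at 106, 178 and 601 CPM and *Fgb* at 74.5, 164 and 231 CPM. *Tph1* stood at 150, 105 and 40.5 CPM, *Muc13* at 132, 77.2 and 42.1 CPM and *Aoc1* at 2046, 1602 and 1194 CPM. *Prlr* differed less, with 2617, 2556 and 2387 CPM. The border cells thus lay nearer to the other clusters in each of these genes, which follows in part from how the groups were made, since neighbours were found from expression. Median depth was 3861, 3776 and 3712 UMIs in the 3 groups.

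**Figure D3:**
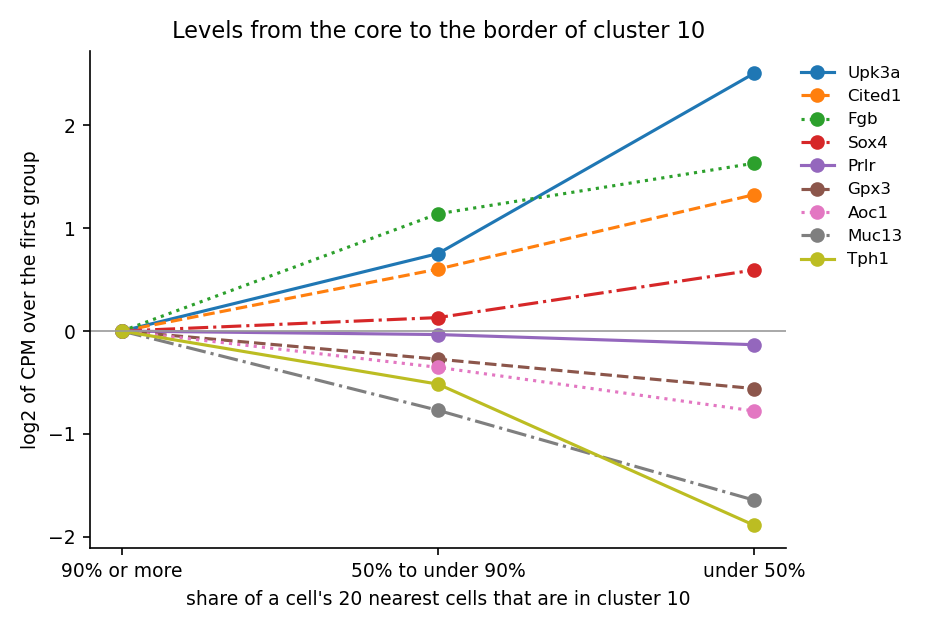
Log2 of the level (CPM) of 9 genes relative to the core of cluster 10, for cells with 90% or more, 50% to under 90% and under 50% of their 20 nearest cells in cluster 10. *Upk3a*, *Fgb*, *Cited1* and *Sox4* are higher at the border, *Tph1*, *Muc13*, *Aoc1* and *Gpx3* are lower, and *Prlr* stays near 0.

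The ratios over the other mature luminal clusters were also taken within 3 ranges of depth. When all mature luminal cells were split into 3 groups at 3149 and 4438 UMIs, the 30 genes with the highest and lowest ratios kept their direction in each group, within which depth was not matched further. The ratio of *Cited1* was -2.39, -2.12 and -1.797 from the shallowest to the deepest group, that of *Upk3a* -4.06, -4.56 and -4.00, and that of *Tph1* 2.35, 2.82 and 2.56.

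Cluster 10 made up 14.5% of all cells in each WT library and 13.6% and 13.5% in mutant libraries A and B. Among mature luminal cells its share was 18.95% in WT A, 19.05% in WT B, 19.5% in mutant A and 19.4% in mutant B, a ratio of mutant to WT of 1.02 (0.97 to 1.08). Among all cells the ratio was 0.936 (0.886 to 0.989), and among cells outside cluster 11 it was 0.833 (0.789 to 0.879). Cluster 11 itself had a ratio of 0.316 among all cells. The order of the genotypes thus depended on the cells counted. The intervals of share ratios treat cells as independent and leave out the spread between mice and pools. Clusters rebuilt with all variable genes at resolutions of 0.4, 0.6 and 1.0 gave best matches with ratios of 0.9375, 0.9321 and 0.8327. Of the cells of these matches, 61.8%, 63.2% and 57.5% were in cluster 10. Of the 30 leading genes, *Arg1*, *Gm17416* and *Ccnb2* differed between genotypes within the cluster. Clusters rebuilt without the leading genes and the genes past the fold between genotypes gave a best match that held 87.0% of cluster 10, but only 56.2% of that match was cluster 10, and its share of all cells was 1.07 times as large in the mutant (1.02 to 1.11). No direction is therefore read from the size.

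**Figure D4:**
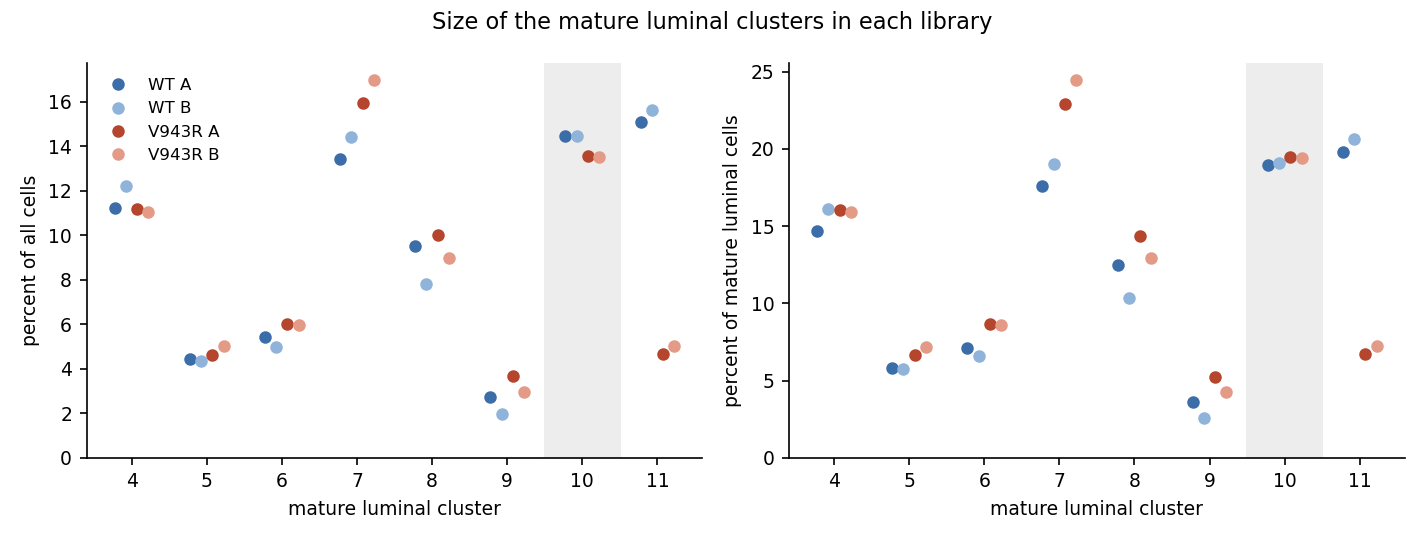
Share of all cells (left) and of mature luminal cells (right), in percent, in each of the 8 mature luminal clusters and 4 libraries (points; WT blue, mutant red), with cluster 10 shaded. The 4 points of cluster 10 lie between 13.5% and 14.5% of all cells and between 18.95% and 19.5% of mature luminal cells.

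Genes were then compared between genotypes within cluster 10. A gene rose or fell where the fold was 1.5 or more, the genotype with more had at least 50 UMIs, and both mutant libraries lay beyond both WT libraries. Of 10198 genes compared, 240 rose (2.35%) and 109 fell (1.07%). Leaving out 1 library, which takes away 1 bound of the rule and part of the UMIs of that genotype, moved the rises to between 126 and 381 and the falls to between 66 and 268. With WT A or WT B left out there were more rises, 381 against 74 falls and 323 against 66, while falls outnumbered rises without mutant A, 183 against 126, and without mutant B, 268 against 215. Many of the 240 and 109 genes had few UMIs, and among the 5721 genes at 20 CPM or more in cluster 10, 41 rose (0.717%) and 14 fell (0.245%). Of the 41 that rose, 20 were protein coding and 18 were pseudogenes, against 290 pseudogenes among the 5721 genes, and all 14 that fell were annotated as protein coding. Pseudogenes share reads with near-identical parent genes and are not named further, except for *Gm12873* below. The median log2 change over all compared genes was -0.012, while the median of the 79 ribosomal protein genes was 0.28, with none past the fold, and 0.24 in clusters 4 to 9. A genotype is 1 pool, so genotype and pool cannot be told apart.

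*Erbb3* (ENSMUSG00000018166, chromosome 10 from 128567523 to 128589652) was the gene targeted in the mutant. The 3' reads of the assay do not show the V943R change itself. By the study's methods, the unrecombined allele holds a wild-type cDNA that ends in an untranslated region of human growth hormone. Reads from that end may not count as *Erbb3*. Whether unrecombined alleles had a part in the level below was not tested. The level of *Erbb3* was 51.9 CPM in WT A and 56.8 CPM in WT B, above the 22.4 CPM of mutant A and the 23.1 CPM of mutant B. The log2 change was -1.26 (-1.50 to -1.02) in cluster 10 and -1.09 (-1.20 to -0.98) in clusters 4 to 9, and the difference of the changes was -0.17 (-0.43 to 0.10). *Erbb2*, its partner receptor, stood at 36.5 and 37.5 CPM in WT and 39.2 and 39.7 CPM in the mutant. *Egfr* and *Erbb4* had 4 UMIs and 1 UMI in cluster 10.

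*Gsta4*, a glutathione transferase that removes products of lipid peroxidation, had the largest rise among genes at 20 CPM. It stood at 78.5 and 76.8 CPM in WT and 202 and 175 CPM in the mutant, a log2 change of 1.27 (1.15 to 1.40), and 1.24 in clusters 4 to 9. *Gsta4* was detected in 17.2% and 18.4% of WT cells and 29.5% and 30.6% of mutant cells of cluster 10, so the libraries did not overlap there either. *Arg1*, arginase, stood at 50.3 and 57.5 CPM in WT and 113 and 122 CPM in the mutant, a change of 1.12 (0.97 to 1.28). In clusters 4 to 9 the change was 0.57 (0.43 to 0.71), and in cluster 11 it was -0.67 (-1.02 to -0.34). The difference between cluster 10 and clusters 4 to 9 was 0.56 (0.35 to 0.76), in counting error only.

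*Rgs2*, a regulator of G-protein signalling, stood at 59.5 and 74.1 CPM in WT and 120 and 151 CPM in the mutant. *Igsf5*, a junctional adhesion protein, stood at 400.0 and 339 CPM against 666 and 760 CPM, and its neighbour on chromosome 16 *Pcp4*, a calmodulin-binding peptide, at 487 and 424 CPM against 806 and 944 CPM. Both changed by 0.96 on the log2 scale. They were unevenly spread, since 3571 and 3298 of the 4565 cells had no UMI of *Igsf5* and *Pcp4* and the top 5% of cells held 72.2% and 70.7% of their UMIs.

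Other protein-coding genes at 20 CPM or more that rose were named after their values had been seen. *Tsc22d3* and *Sgk1*, which are induced by glucocorticoids, changed by 0.88 and 0.64. *Cish*, a STAT5 target that dampens cytokine receptors, stood at 26.4 and 24.6 CPM in WT and 43.7 and 47.9 CPM in the mutant, the only member of 8 compared prolactin axis genes that rose, against 2.35% of all compared genes. *Txnip*, an inhibitor of thioredoxin, changed by 0.78, *Hspa8*, a constitutive chaperone and the only 1 of 11 compared heat shock genes that rose, by 0.69, and *Ahr*, the aryl hydrocarbon receptor, by 0.86. *Adrb1*, *Cyr61* and *Crym* changed by 0.78, 0.62 and 0.60. All of these changed in the same direction in clusters 4 to 9, by 0.42 to 0.71.

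Of the genes that fell, *Hes1*, a target of Notch signalling, had the highest level, with 524 and 537 CPM in WT and 328 and 345 CPM in the mutant. Its change was -0.66 (-0.72 to -0.59), against -0.32 (-0.34 to -0.29) in clusters 4 to 9, a difference of -0.34 (-0.41 to -0.27) in counting error only. *Irf1*, an interferon-regulated transcription factor, stood at 78.5 and 82.3 CPM in WT and 52.6 and 44.8 CPM in the mutant. *Fgg* fell by 0.66 on the log2 scale, as in clusters 4 to 9, where it fell by 0.71. *Lrg1*, a secreted glycoprotein, fell by 0.72, *Gna14*, a G-protein subunit, by 0.71, *Creg1* by 0.67, *Tnfsf9*, a TNF-family ligand, by 0.63, *Cdkn2d*, a CDK inhibitor, by 0.61 and *Trim29* by 0.60.

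**Figure D5:**
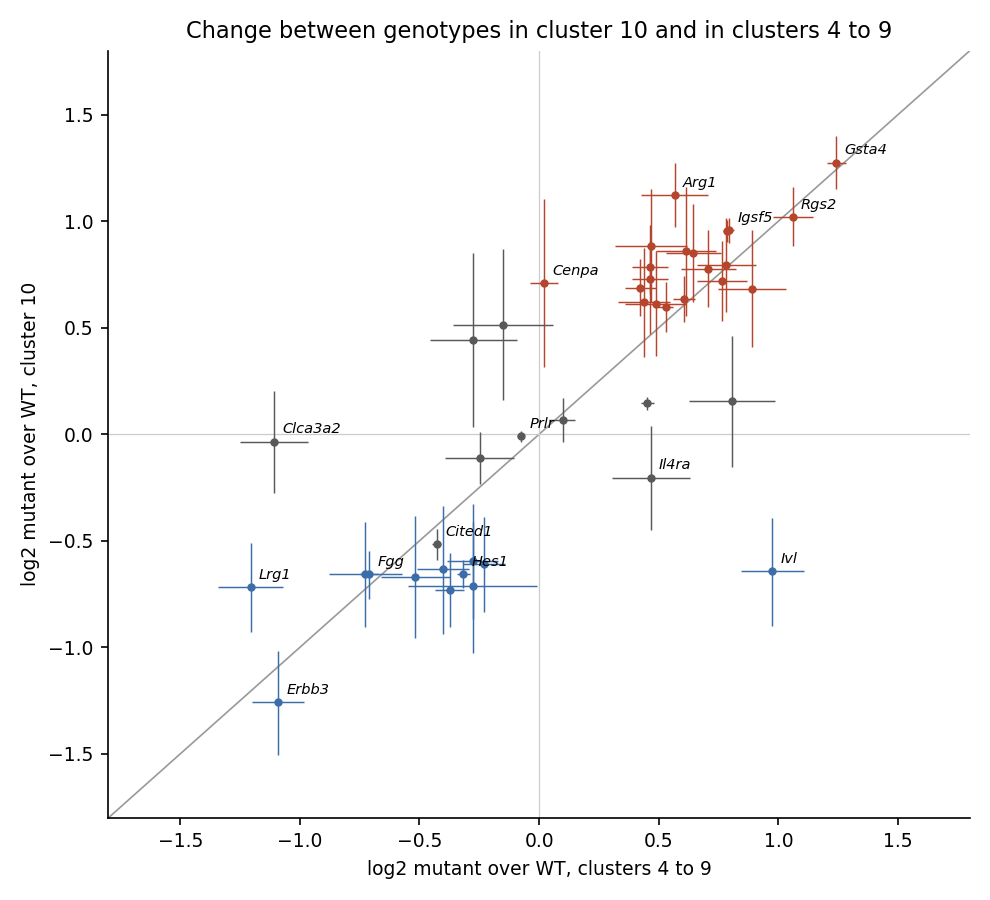
Log2 change of level, mutant over WT, in cluster 10 (vertical axis) against clusters 4 to 9 (horizontal axis), for named genes at 20 CPM or more that rose (red) or fell (blue) in cluster 10 and others named in the text (grey). Bars are 95% intervals for counting error only and the diagonal marks equal changes. *Erbb3* and *Gsta4* lie near the diagonal, while *Ivl* (-0.64 and 0.97) and *Clca3a2* (-0.04 and -1.11) lie far from it.

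The largest log2 changes came from genes of low level. *Wfdc12*, a secreted protease inhibitor, stood at 5.52 and 0.910 CPM in WT and 43.7 and 23.4 CPM in the mutant, from 50 cells, and 1 cell of mutant B held 72 of its 299 UMIs. *Slpi*, another inhibitor of the same family, stood at 4.73 and 2.37 CPM against 13.9 and 9.81 CPM. Of its 132 UMIs, 41 came from 1 cell of mutant A, and a UMI was held by 0.646% and 0.691% of WT cells and 0.968% and 1.28% of mutant cells. *Mir7678*, annotated inside *Slpi* on the same strand, cannot be told apart from it. *1500015O10Rik*, *Cdk5rap1*, *Ly6g*, *Klk7*, *Ccnb2*, *Slc15a2* and *Gm37101* also rose, by 1.32 to 2.86. *Mtus2* stood at 5.72 and 5.46 CPM in WT, with 4 UMIs in all in the mutant, and *Reg3g*, *Tmem267*, *Krt83*, *Morn4*, *Tshz2*, *Frat2* and *Gpatch3* fell by between 1.04 and 1.72. When each gene was counted without the cell that held most of it in each library, a setting chosen after the data had been seen, 7 of the 10 largest rises and 6 of the 10 largest falls still met the rule. *Slpi*, *Mir7678* and *1500015O10Rik* did not, nor did *Gpatch3*, *Krt83*, *Morn4* and *Reg3g*, each because under 50 UMIs were left in the genotype with more. At 20 CPM or more, 40 of the 41 rises and all 14 falls still met it.

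Of the 30 genes with the highest and lowest ratios, 3 rose between genotypes, *Arg1*, *Gm17416* and *Ccnb2*, and none fell. Among all compared genes, 2.35% rose and 1.07% fell. Of the 30 chosen without clusters 5 and 6, *Arg1* and *Gm17416* rose and *Sept4* and *Itih2* fell. Of further genes described above that did neither, *Tph1* changed by -0.11 (-0.23 to 0.01), *Upk3a* by -0.046 (-0.14 to 0.05), *Ido1* by 0.08 (0.05 to 0.12), *Gpx3* by 0.08 (0.07 to 0.09), *Aoc1* by 0.14 (0.11 to 0.18), *Glul* by -0.19 (-0.20 to -0.17) and *Fgb* by -0.35 (-0.47 to -0.23). The receptors *Prlr* and *Pgr* changed by -0.010 (-0.04 to 0.02) and 0.07 (-0.03 to 0.17). *Cited1* changed by -0.52 (-0.59 to -0.44) and did not reach the fold. In clusters 4 to 9 it changed by -0.43 and in cluster 11 by -0.36. Both mutant libraries of cluster 10 lay below both WT libraries for *Cited1* and above them for *Sox4*, which changed by 0.46.

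Of the 240 genes that rose in cluster 10, 53 also rose in clusters 4 to 9, which is 22.1% of the former and 14.4% of the 368 that rose in the latter. Of the 109 that fell, 13 also fell there, which is 11.9% and 6.95% of each list. Of all 14270 genes compared in clusters 4 to 9, 2.58% rose and 1.31% fell. These cells come from the same pools and libraries, so the lists are not independent.

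Some changes in cluster 10 went against those in clusters 4 to 9, among 7327 genes with at least 100 UMIs in each genotype of both. *Ivl*, involucrin, a protein of the cornified envelope, stood at 40.6 and 34.6 CPM in WT and 31.6 and 17.3 CPM in the mutant. In clusters 4 to 9 it stood at 18.7 and 20.4 CPM in WT and 41.4 and 35.7 CPM in the mutant. The share of cluster 10 cells with an *Ivl* UMI was 3.08% in WT A, 3.99% in WT B, 3.44% in mutant A and 3.41% in mutant B, so the level fell while the share of cells overlapped between genotypes. *Clca3a2*, a secreted protein of the calcium-activated chloride channel regulator family, stood at 37.5 and 27.1 CPM in WT and 35.3 and 27.8 CPM in the mutant in cluster 10, and changed by -1.11 in clusters 4 to 9, a difference of 1.07 (0.80 to 1.35). The other genes with the largest differences were *Gm12873*, annotated as an unprocessed pseudogene, *Ppp3cc*, *Cenpa* and *Prrt1*, with 0.67 to 0.81 more in cluster 10, and *Gm9513*, *Gm20744*, *Il4ra* and *Trabd2b*, with differences of -0.77 to -0.65. *Wdfy1*, an endosomal protein, changed by 0.08 (-0.12 to 0.27) in cluster 10, by 0.65 in clusters 4 to 9 and by 2.13 in cluster 11.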

How the data were processed

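The authors aligned and counted the reads of 4 droplet libraries (10x Genomics 3' version 2 chemistry). The submitters' processing notes name CASAVA 1.8, bcl2fastq 2.20, GSNAP and GRCm38, and the study names Partek Flow with Seurat clustering at a resolution of 0.6. The authors deposited 1 table of a signal for 52636 genes in 32439 cells, which is the UMI count scaled by a factor of each cell, with its library, genotype, cluster and class. The replicate number of a library is not in the table, so A and B only name libraries.

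Dividing each value by the smallest of its cell gave whole numbers within 0.02 for 100% of 60853305 nonzero values, which were used as UMIs. All cells were kept. Libraries held 6849 to 9627 cells and 30019745 to 38009351 UMIs. Doublets were not removed, since scrublet called only 2 cells (0.00617%) and had not worked. The 6% of cells with the highest scores held 1.16% of cluster 10.

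At 95%, intervals are exact conditional binomial for log2 ratios and log-normal for a ratio of shares. Shares after thinning are expected values, and 86 other mature luminal cells and 4 cells of cluster 13 under 1000 UMIs were left out there. No count model was fitted to the UMIs recovered from the deposited signal. The genes named were those of gene lists, the 15 highest and 15 lowest ratios, the 10 largest rises and falls between genotypes and the 5 largest differences of changes in each direction. All genes at 20 CPM or more that rose or fell could be named in addition. The members and lists were chosen with earlier results of these data known. The fold rules were run on simulated data that held counting error only, with no added spread between cells, libraries or pools. That run therefore gives no error rate for the real data. The symbol *Aldoa* stands for more than 1 gene and was not used. Positions are those of GENCODE for GRCm38. The software was Python 3.11.15, numpy 2.4.6, pandas 2.3.3, scipy 1.17.1, scanpy 1.11.5, scikit-learn 1.9.0, leidenalg 0.10.2 and matplotlib 3.10.9, with a seed of 1. The alternatives tried were each library left out, other scalings, other reference clusters, other filters, doublet scores, other denominators and rebuilt clusters.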

Additional observations from a re-analysis of the deposited data

Results flagged for a closer look

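In 4 genes both mutant libraries lay on one side of both WT libraries in cluster 10 and on the other side in clusters 4 to 9. The difference was not tested in any of the 4 genes, and each genotype was 1 pool. *Ivl* had a log2 change in cluster 10 minus that in clusters 4 to 9 of -1.62, from 590 UMIs in cluster 10, where 4406 of 4565 cells had none. *Gm12873*, annotated as an unprocessed pseudogene, had a difference of 0.81, with 17.2 and 21.8 CPM in WT and 26.8 and 22.4 CPM in the mutant in cluster 10. *Ppp3cc*, a catalytic subunit of calcineurin, had a difference of 0.72, with 7.49 and 11.7 CPM against 12.1 and 14.01 CPM. *Prrt1* had a difference of 0.67, with 13.2 and 11.3 CPM against 17.1 and 17.8 CPM. In *Gm12873* and *Ppp3cc* the nearest libraries of the 2 genotypes differed by 0.04 and 0.06 on the log2 scale in cluster 10.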

How the results depend on the processing

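The ratio of the share of cluster 10, mutant over WT, was 0.936 (0.886 to 0.989) of all cells, with an interval that covers the counting of cells only. It turned to 1.023 of mature luminal cells and to 1.068 for the best match among clusters rebuilt without the differing and leading genes, and was 0.8328 outside cluster 11 and 0.9321 for the best match of clusters rebuilt with all genes. Leaving out 1 library gave 0.9338 to 0.9387. Against the other mature luminal clusters, size factors gave 230 higher and 282 lower genes, leaving out clusters 5 and 6 gave 233 lower genes, a minimum of 50 UMIs gave 465 and 2355, and 100 CPM gave 56 and 82. Leaving out 1 library gave 123 to 144 higher and 415 to 449 lower genes. The log2 ratio of *Cited1* was -1.855 with size factors and -1.794 without clusters 5 and 6 (-2.062 to -1.979 leaving out 1 library), that of *Prlr* 0.577 and 0.24 (0.386 to 0.434), and that of *Pgr* 0.41 and 0.172 (0.237 to 0.264). The signs of the 30 leading genes were the same in all 300 values under alternatives, and those of 20 genes named between genotypes in all 159. Both sets had been chosen for 1 direction across libraries, so the signs with 1 library left out followed from the choice. These counts are therefore no separate support.

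Between genotypes, a minimum of 20 UMIs gave 577 rises and 299 falls and one of 200 UMIs gave 42 and 19. Counting each gene without its top cell in each library, chosen after the data had been seen, gave 238 and 121. Leaving out 1 library gave 126 to 381 rises and 66 to 268 falls: 381 and 74 without WT A, 323 and 66 without WT B, 126 and 183 without mutant A, and 215 and 268 without mutant B. Either library of a genotype moved the counts the same way, and each such count has 1 bound fewer and fewer UMIs in that genotype. No paired analysis was possible because the table gives no replicate numbers and each genotype was 1 pool.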
